A study of Homo sapiens with 4 samples.

Results

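SPARC, tenascin-C (TNC), fibronectin (FN1), thrombospondin-1 and thrombospondin-2 (THBS1, THBS2), fibulin-1, fibulin-2 and fibulin-5 (FBLN1, FBLN2, FBLN5) and fibrillin-1 and fibrillin-2 (FBN1, FBN2) are encoded by 10 genes whose RNA was compared between the breast cancer cell lines MDA-MB-231 and LM2-4175. The genes were chosen by name, and each was found once among the 57815 genes of the RNA-Seq table. MDA-MB-231 is a line of the triple-negative type, which the paper treats as a model of moderate metastasis. LM2-4175 was isolated from MDA-MB-231, spreads to the lung and is the paper's model of high metastasis to the lung. Both were untreated and grown in culture. Total RNA was extracted, and 2 libraries prepared from it with a TruSeq kit were sequenced per cell line, 4 in all. The authors' table gives 1 FPKM (fragments per kilobase of exon, scaled to the mapped fragments) per gene and cell line with a lower and an upper bound, in which both libraries are combined. The difference therefore has no replicate check, and each cell line stands for 1 line and not for a class of tumours. The number of reads behind a single value is not known from this table, although the paper lists the aligned read pairs of each library.

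Matrix glycoproteins are secreted proteins that build and tune the extracellular matrix around cells. Fibronectin is assembled into fibrils at the cell surface through integrins, and fibrillins form the microfibrils on which elastic fibres are laid down, with fibulins as connecting proteins. SPARC, tenascin-C and thrombospondins are matricellular proteins, which bind matrix, growth factors and receptors and change how cells adhere without giving the matrix its strength. Tenascin-C and SPARC belong to the expression signature of lung metastasis first derived with MDA-MB-231 and its lung-selected cells, so their direction in these lines is not independent of that choice.

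SPARC, TNC, FBLN1 and FBLN5 were higher in LM2-4175, FN1 and THBS1 were lower, and FBN1 differed little. THBS2, FBLN2 and FBN2 were close to 0 in both cell lines. A gene was called where FPKM + 1 differed by at least 1.5-fold and the bounds of the cell lines were apart, among 13911 genes with a mean of at least 0.5 FPKM. By this rule 9.27% of all genes tested were called, 4.67% as higher and 4.61% as lower in LM2-4175. Of the 10 genes, 7 were tested, 4 of which were called higher and 2 lower. FBLN5 reached the minimum through its LM2-4175 value alone, and without it 5 of 6 were called. As the genes were picked with earlier results of these data known, the count describes them and supports nothing about them as a class.

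**Figure D1:**
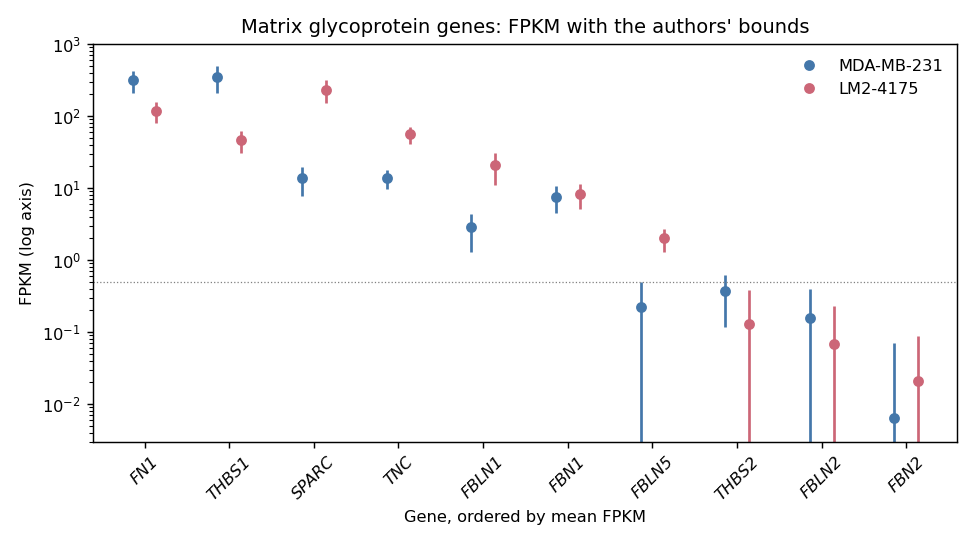
FPKM of the 10 genes (log axis) in MDA-MB-231 (blue) and LM2-4175 (red), 1 pooled value per cell line as a point and the authors' bounds as a line, which runs to the lower edge where the lower bound is 0. The dotted line marks the minimum mean of 0.5 FPKM. The bounds are apart for FN1, THBS1, SPARC, TNC, FBLN1 and FBLN5 and overlap for the other 4 genes.

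The promoters of the genes with the highest mean FPKM are shown because these genes changed in opposite directions. Each sequence holds the 250 bases before the RefSeq transcription start, 5′ to 3′ on the strand of the gene, and was found once on its chromosome in GRCh37, the build used by the authors (hg19). Capitals mark matches on either strand to letters that known factors bind, and neighbouring matches may overlap. The letters searched were TATAAA (bound by TBP), CCAAT (bound by NF-Y), GGGCGG (bound by SP1), TGANTCA (bound by AP-1), GGAATG (bound by TEAD factors) and CAGCTG (an E-box). SPARC lies at chr5:151066477-151066726 (minus strand), TNC at chr9:117880437-117880686 (minus), FN1 at chr2:216300792-216301041 (minus) and THBS1 at chr15:39873030-39873279 (plus).
SPARC: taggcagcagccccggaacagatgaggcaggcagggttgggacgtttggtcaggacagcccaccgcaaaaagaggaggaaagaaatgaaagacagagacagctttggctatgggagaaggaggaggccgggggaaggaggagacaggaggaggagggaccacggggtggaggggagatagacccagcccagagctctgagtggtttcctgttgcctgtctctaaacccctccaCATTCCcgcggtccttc
TNC: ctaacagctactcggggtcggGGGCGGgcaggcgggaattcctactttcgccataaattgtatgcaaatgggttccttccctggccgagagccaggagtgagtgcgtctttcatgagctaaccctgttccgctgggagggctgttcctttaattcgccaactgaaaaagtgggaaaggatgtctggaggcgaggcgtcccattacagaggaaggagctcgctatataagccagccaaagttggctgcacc
FN1: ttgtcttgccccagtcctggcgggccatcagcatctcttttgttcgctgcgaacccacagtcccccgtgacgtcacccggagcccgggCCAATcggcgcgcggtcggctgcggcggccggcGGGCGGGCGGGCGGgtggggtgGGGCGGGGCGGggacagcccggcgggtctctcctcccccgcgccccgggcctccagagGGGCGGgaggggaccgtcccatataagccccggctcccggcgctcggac
THBS1: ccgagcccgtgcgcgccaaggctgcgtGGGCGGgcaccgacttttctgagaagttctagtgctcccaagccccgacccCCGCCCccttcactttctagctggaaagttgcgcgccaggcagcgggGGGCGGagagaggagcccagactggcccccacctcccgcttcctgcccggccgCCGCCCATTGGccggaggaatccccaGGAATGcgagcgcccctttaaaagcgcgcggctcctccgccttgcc

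These windows differed in composition. FN1 had a GC content of 76.4% with 32 CpGs and THBS1 69.6% with 24 CpGs, whereas SPARC had 59.2% with 7 CpGs and TNC 54.8% with 12 CpGs. The median of 35116 RefSeq windows was 58.0% with 11 CpGs. The letters GGGCGG occurred 6 times in the FN1 window, 4 times in that of THBS1, once in that of TNC and not in that of SPARC, and 42.6% of all windows held them. SPARC held GGAATG (as CATTCC) 17 bases before its start and THBS1 held it 46 bases before its start, against 11.9% of all windows. FN1 and THBS1 held CCAAT, as did 32.0% of all windows. FBLN1, which rose, had a GC content of 77.6%, and the 2 windows of FBLN5, which also rose, had 71.6% and 48.8%. A link of composition to the direction of change was not tested. Over all 10 genes, GGGCGG was found in 7, CCAAT and GGAATG in 4 each, TATAAA in 2 (10.7% of all windows), CAGCTG in 1 (13.99%) and TGANTCA in none (6.57%). FBLN2 and FBLN5 each have 2 RefSeq windows, which were counted once per gene. Only exact letters were counted, so TATAAG in the windows of TNC and FN1 was not a match. A match is a description of the letters and not of a bound factor.

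SPARC encodes a collagen-binding matricellular protein (ENSG00000113140, chromosome 5 of GRCh37, 151040657 to 151066536, minus strand). MDA-MB-231 had 13.6 FPKM of SPARC (authors' bounds 7.69–19.6), and LM2-4175 had 231.7 FPKM (150.4–313.1). The value in LM2-4175 was 17.0 times that in MDA-MB-231, and the closest bounds still differed 7.67-fold. On the log2 scale of FPKM + 1, used for all changes below, the change was 3.99, and 27 of the 13911 genes tested rose at least as far, SPARC among them. In MDA-MB-231, SPARC was near the middle of the genes tested, above 53.5% of them, and in LM2-4175 it was above 97.7% of them. Exons of an antisense lncRNA, CLMAT3, overlap 4.12% of its exon bases.

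TNC encodes tenascin-C, a large multi-armed glycoprotein that counteracts adhesion to fibronectin (ENSG00000041982, chromosome 9, 117781854 to 117880486, minus strand). Its FPKM was 13.6 (9.63–17.6) in MDA-MB-231, level with SPARC, and 55.8 (40.6–71.0) in LM2-4175. The ratio was 4.10 and the log2 change 1.96. Among the genes called higher it had the narrowest relative bounds, which reached 29.1% above the FPKM in MDA-MB-231 and 27.2% above it in LM2-4175. SPARC and TNC stood at the same level in MDA-MB-231, while in LM2-4175 SPARC was 4.15 times TNC, with bounds apart. Exons of DELEC1 on the opposite strand share 1.35% of the exon bases of TNC.

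FN1 encodes fibronectin (ENSG00000115414, chromosome 2, 216225163 to 216300796, minus strand). It fell from 314 FPKM (208.9–418.5) in MDA-MB-231 to 117 FPKM (79.5–155) in LM2-4175, a value 2.67 times lower and a log2 change of -1.41. With bounds of 208.9 and 155 at the nearest, the distance between the cell lines was the smallest of the 6 genes called as a ratio, 1.35. FN1 nevertheless stayed above 94.3% of the genes tested in LM2-4175, after 98.1% in MDA-MB-231. GENCODE 44 holds 27 transcripts of FN1, whereas the FPKM rest on GENCODE 19. The table gives the gene as a whole, so splice forms of fibronectin were not separated.

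THBS1 encodes thrombospondin-1, which activates latent TGF-beta and inhibits angiogenesis (ENSG00000137801, chromosome 15, 39873280 to 39891667, plus strand). It was the most abundant of the 10 genes in MDA-MB-231 with 352 FPKM (206.5–496.7), and in LM2-4175 it had 46.4 FPKM (30.2–62.5). The value was 7.58 times lower in LM2-4175, the log2 change was -2.90, and 33 genes tested fell at least as far, THBS1 among them. Its exons share 7.58% of their bases with FSIP1 and THBS1-AS1 on the opposite strand. THBS2, a related thrombospondin (chromosome 6, 169615875 to 169654145, minus strand), had 0.372 FPKM (0.117–0.626) and 0.131 FPKM (0–0.377), below the minimum and with overlapping bounds. Exons of THBS2-AS1 overlap 31.2% of its exon bases, and strand use in counting is not stated.

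**Figure D2:**
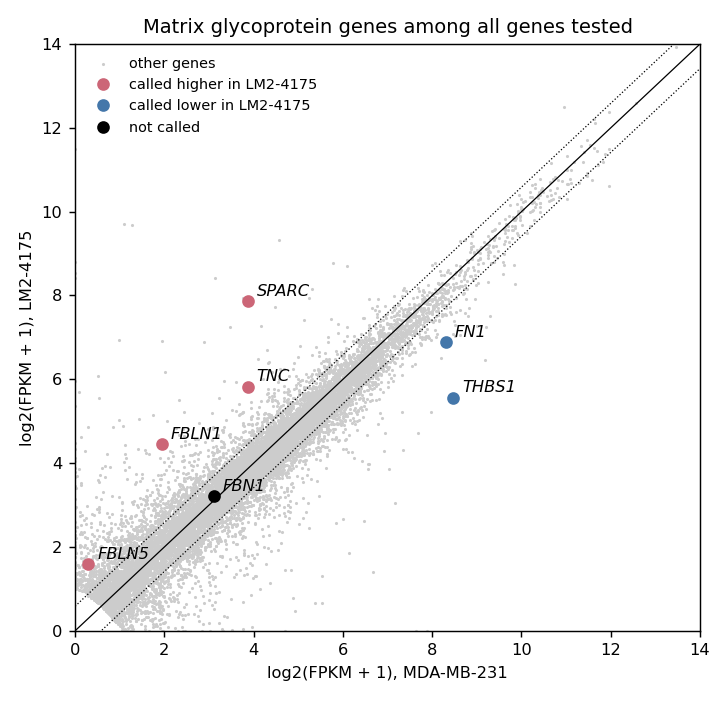
log2(FPKM + 1) in MDA-MB-231 against LM2-4175 for the 13911 genes tested (grey), with the 7 tested matrix glycoprotein genes in colour. The solid line marks equal values and the dotted lines a 1.5-fold change. SPARC, TNC, FBLN1 and FBLN5 lie above the upper line, FN1 and THBS1 below the lower line, and FBN1 on the line of equal values.

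The fibulins connect elastic fibres, basement membranes and fibronectin. FBLN1 (ENSG00000077942, chromosome 22, 45898118 to 45997015, plus strand) was 7.40 times higher in LM2-4175, at 20.9 FPKM (11.02–30.8) after 2.83 FPKM (1.28–4.37) in MDA-MB-231, and its log2 change was 2.52. FBLN5 (ENSG00000140092, chromosome 14, 92335755 to 92414331, minus strand) was barely detected in MDA-MB-231 at 0.225 FPKM (0–0.493) and reached 2.01 FPKM (1.29–2.73) in LM2-4175, with a log2 change of 1.30. Both rose, but FBLN1 came to overlap THBS1 in LM2-4175 by the bounds, and FBLN5 was a low gene even there, above 17.7% of the genes tested. As its lower bound in MDA-MB-231 is 0, the ratio of 8.92 for FBLN5 has no upper limit from the bounds, and its lower limit is 2.62. FBLN2 (chromosome 3, 13590625 to 13679922, plus strand) was near 0 at 0.156 FPKM (0–0.398) and 0.0685 FPKM (0–0.232). No exon of another gene overlaps FBLN1, FBLN2 or FBLN5.

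Fibrillins form microfibrils and hold latent TGF-beta complexes in the matrix. FBN1 (ENSG00000166147, chromosome 15, 48700510 to 48937918, minus strand) had 7.61 FPKM (4.51–10.7) and 8.29 FPKM (5.15–11.4). It was the gene of the 7 tested that was not called, with a ratio of 1.09 that the bounds leave between 0.481 and 2.53, so a change of about 2-fold either way was not detectable. FBN2 (chromosome 5, 127593601 to 127994878, minus strand) was near 0, at 0.00633 FPKM (0–0.0699) in MDA-MB-231 against 0.02115 FPKM (0–0.0867) in LM2-4175. No exon of another gene overlaps FBN1.

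The order of the levels, which FPKM allows because it is per length, was different in the cell lines. In MDA-MB-231 THBS1 and FN1 came first with overlapping bounds, and FN1 was 23.0 times SPARC. SPARC, TNC and FBN1 followed, each overlapping the next, and FBLN1 came after them with bounds apart from FBN1. In LM2-4175 SPARC came first and FN1 next, their bounds just overlapping, and TNC, THBS1, FBLN1 and FBN1 followed in that order, each overlapping the next. THBS1 was 25.8 times SPARC in MDA-MB-231, and SPARC was 5.00 times THBS1 in LM2-4175. FN1 was 23.1 times TNC in MDA-MB-231 and 2.10 times TNC in LM2-4175.

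The 10 genes summed to 704 FPKM in MDA-MB-231 and 483 FPKM in LM2-4175, or 0.111% and 0.0807% of the FPKM of all genes. THBS1 made up 49.96% and FN1 44.6% of the sum in MDA-MB-231, and the 4 genes that rose made up 4.30%. In LM2-4175 SPARC made up 48.0%, FN1 24.3%, TNC 11.6% and THBS1 9.61%, and the 4 genes that rose 64.3%. The sum of FN1 and THBS1 went from 665 to 164 FPKM and that of SPARC, TNC, FBLN1 and FBLN5 from 30.3 to 310.5 FPKM.

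**Figure D3:**
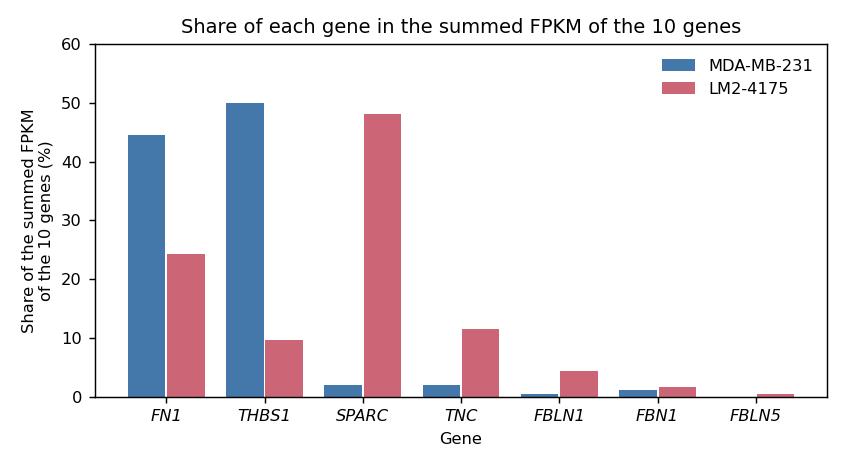
Share of each of the 7 tested genes in the summed FPKM of the 10 genes (%), in MDA-MB-231 (blue) and LM2-4175 (red), 1 pooled value per cell line with no error. THBS1 and FN1 hold 49.96% and 44.6% in MDA-MB-231, and SPARC holds 48.0% in LM2-4175.

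Relatives of these genes were taken from general knowledge. Of 21 relatives 10 were tested, and 1 was called higher and 2 lower, against 4.67% and 4.61% of all genes tested, with a median change of 0.17 against -0.04 over all genes tested. SPOCK1, a proteoglycan with a SPARC-like domain, rose from 0.760 FPKM (0–1.58) to 5.91 FPKM (2.84–8.97). EFEMP1, which encodes fibulin-3, fell from 129 FPKM (98.1–160) to 13.4 FPKM (9.84–17.0), a log2 change of -3.17, in the direction opposite to FBLN1 and FBLN5. FBLN7 fell from 6.05 FPKM (3.91–8.20) to 2.67 FPKM (1.58–3.76). The fibulin-4 gene EFEMP2 had wide bounds of 0 to 34.2 FPKM and 0 to 27.8 FPKM, and nothing can be read from it. FSTL1, a SPARC relative, had 164 FPKM and 121 FPKM with overlapping bounds. The latent TGF-beta binding proteins, which share the domains of fibrillins, were each tested and not called, with changes from 0.15 (LTBP4) to 0.49 (LTBP1). THBS3 was not called, and THBS4, COMP and the tenascins TNR, TNN and TNXB were below the minimum, so THBS1 and TNC were the abundant genes of their families in these cells.

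Of 40 other matrix glycoprotein genes 22 were tested, and 1 was called higher and 6 lower, with a median change of -0.24. Together 31.8% of the 22 were called, beside 9.27% of all genes tested (4.67% higher and 4.61% lower). MATN2, a matrilin that links matrix filaments, fell most, from 56.5 FPKM (27.4–85.6) to 4.98 FPKM (0–13.1). VWA1, a basement membrane protein, fell from 17.5 FPKM (11.9–23.1) to 3.80 FPKM (2.28–5.32). IGFBP7 fell from 361 FPKM (246.5–476) to 129.95 FPKM (79.6–180.3), and the integrin ligand EDIL3 fell from 69.0 FPKM (52.6–85.4) to 24.5 FPKM (18.7–30.4). TINAGL1 and PAPLN were the other genes called lower, and PAPLN went from 1.36 FPKM to 0.392 FPKM, so it reached the minimum mean through MDA-MB-231 alone. SRPX2 rose from 2.55 FPKM (1.67–3.44) to 7.98 FPKM (5.67–10.3), but other genes overlap 52.0% of its exon bases. Exons of other genes overlap 18.3% of those of IGFBP7. The difference between this list and the 10 genes was not tested.

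**Figure D4:**
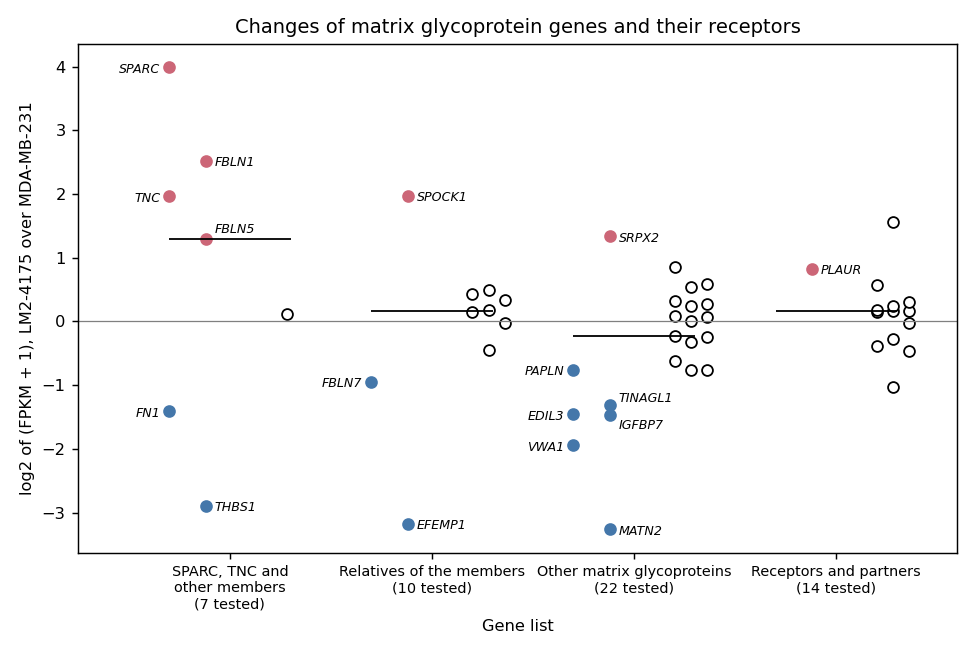
log2 change of FPKM + 1 (LM2-4175 over MDA-MB-231) of the tested genes in 4 lists, with filled points for genes called higher (red) or lower (blue) in LM2-4175, open points for genes not called and a bar at the median. The medians are 1.30, 0.17, -0.24 and 0.16 from left to right, and the first is the value of FBLN5 itself and is 1.03 without that gene.

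Of 19 receptors and partners of these proteins, 14 were tested and 1 was called (7.14%, near the 9.27% of all genes tested), with a median change of 0.16. This was PLAUR, the urokinase receptor, which rose from 56.4 FPKM (42.9–69.9) to 101 FPKM (77.0–125). ITGA5 and ITGB1, the chains of the main fibronectin receptor, were chosen for their role after their values were seen. ITGA5 had 44.7 and 49.6 FPKM and ITGB1 667 and 759 FPKM, both with overlapping bounds. CD47, a receptor of thrombospondin-1 chosen in the same way, had 38.4 and 37.7 FPKM. LRP1, which takes up thrombospondin-1, had 5.15 FPKM (0.638–9.65) and 17.2 FPKM (5.72–28.7), and its wide bounds overlap. CD36, ITGA4, ITGA8 and ITGA9, further receptors of these ligands, were below the minimum.

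The genes around SPARC, TNC, FBLN1, FN1 and THBS1 stayed short of them in the direction in which each had changed, whereas FBLN5 lay within the range of its neighbours. These genes were compared because they were called, so they were already far from the middle of all genes tested. A like number of genes from elsewhere could also stay short of them, and this was not tested. Within 3 Mb of the start of SPARC, 34 protein-coding genes were tested, with a median change of -0.04 and a highest change of 1.34. The 28 neighbours of TNC had a median of -0.01 and reached 1.31 at most, and the 31 neighbours of FBLN1 had a median of -0.19 and reached 1.21. Of 53 neighbours of THBS1 the lowest changed by -0.997, and of 17 neighbours of FN1 the lowest changed by -0.17. Around FBLN5 the range was wide, from -5.27 to 3.26 over 37 genes with a median of 0.19. Over all 12082 protein-coding genes tested the median was -0.05, and 563 were called higher and 580 lower. Neighbours called higher and lower numbered 2 and 3 around SPARC, 2 and 1 around TNC and 2 and 0 around FBLN1. They numbered 4 and 2 around FBLN5, 1 and 0 around FN1 and 0 and 1 around THBS1. Whether these counts differ from the share over all genes was not tested. THBS1 and FBN1 lie 9.06 Mb apart on chromosome 15, and the former was called and the latter was not.

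**Figure D5:**
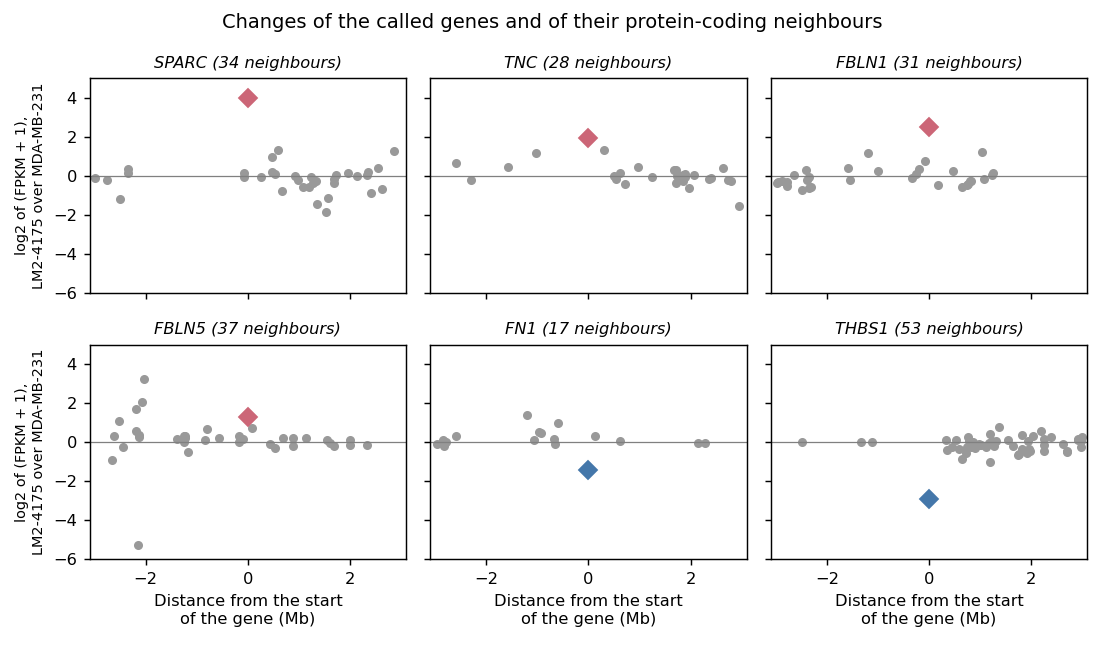
log2 change of FPKM + 1 (LM2-4175 over MDA-MB-231) of the 6 called genes (diamonds, red for higher and blue for lower) and of the protein-coding genes tested within 3 Mb (grey), by distance from the start of the gene in Mb along its own strand. SPARC, TNC, FBLN1, FN1 and THBS1 lie outside the range of their neighbours, and FBLN5 lies within it. The genes shown were picked as called, so they were already far from the middle of all genes tested.

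Matrix glycoproteins are also made by fibroblasts and by blood vessel cells, so markers of other cells were read from the same table. Of 10 fibroblast markers 6 were under 1 FPKM in both cell lines, and the list summed to 17.1 FPKM in MDA-MB-231 and 33.4 FPKM in LM2-4175. COL1A1 carried this rise and was called higher, going from 3.16 to 31.0 FPKM, and without it the sum went from 13.9 to 2.41 FPKM. PDGFRB (9.44 and 1.91 FPKM, MDA-MB-231 first), LUM (1.34 and 0.178 FPKM) and COL1A2 (2.76 and 0.113 FPKM) were called lower in LM2-4175. LUM and COL1A2 reached the minimum mean through MDA-MB-231 alone. PDGFRA, DCN, FAP and COL3A1 were under 0.2 FPKM in both cell lines. A level of 0 was listed for THY1 in MDA-MB-231 and for PDPN in LM2-4175. PECAM1, a further endothelial marker planned, was not found by that name. Of the 4 endothelial markers found, 3 were under 1 FPKM in both, and the sum was 1.07 and 2.66 FPKM. The other, KDR, was called higher in LM2-4175 (0.971 and 2.48 FPKM). Of 5 white blood cell markers 3 were under 1 FPKM in both, and the list summed to 4.17 and 2.57 FPKM with none called. The hormone receptor genes ESR1 and PGR were near 0, ESR1 at 0.0331 and 0.0186 FPKM and PGR at 0.0124 and 0.00438 FPKM (MDA-MB-231 first), and ERBB2 had 35.0 and 22.8 FPKM. The 5 markers of mesenchymal-like breast cancer lines summed to 2840 and 2636 FPKM. Of these CAV1 was called lower in LM2-4175 (587 and 151 FPKM), and VIM (1355 and 1768 FPKM), CD44, AXL and ZEB1 were not called. Of 5 epithelial markers 4 were called lower in LM2-4175, and the list summed to 1338 and 403 FPKM. Their part in the change of the matrix genes was not tested.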

How the data were processed

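RNA-Seq covered 2 libraries of each cell line. TopHat 2.0 served the authors for alignment to hg19, and Cufflinks and Cuffdiff for the quantification of GENCODE 19 genes. The deposited FPKM and their lower and upper bounds combine the libraries of a cell line, so limma on libraries was not possible. Library scaling, strand use and what the bounds cover are not given in the sources used here. For the genes with a status of OK in MDA-MB-231 and a lower bound above 0, upper and lower bound are equally far from the estimate. The median distance over the genes tested was 38.6% of the FPKM in MDA-MB-231 and 38.1% in LM2-4175.

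The log2 ratio of FPKM + 1 was taken as the change, using pandas 2.3.3, NumPy 2.4.6 and SciPy 1.17.1 under Python 3.11.15. This scale understates the change of low genes. Genes with a status of OK and a mean of at least 0.5 FPKM were tested, and a call needed 1.5-fold and bounds apart, which compares pooled libraries and not replicates. The genes and lists were chosen with earlier results of these data known, and of each list the called genes are named, with values for at most the 5 largest changes. Any further gene was picked with its values in view. Positions, transcript counts and exon overlaps came from GENCODE 44 on GRCh37, which held 55535 of 57815 genes. This is a later release than the GENCODE 19 used for the FPKM, whose own transcripts and overlaps were not examined. Promoters came from RefSeq (GRCh38.p14) and were matched to GRCh37 without mismatches. Figures were drawn with Matplotlib 3.10.9.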

Additional observations from a re-analysis of the deposited data

How the results depend on the processing

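The alternatives were pseudocounts of 0.1 and 0, no filter, a mean of at least 5 FPKM, scaling to TPM or by the median ratio, a fold of 2, the fold alone, the bounds alone, and standard errors read from the bounds with adjustment over all genes. For the 7 tested matrix glycoprotein genes, the 69 alternative values kept their direction and their call. FBLN5 was not tested at a mean of at least 5 FPKM. Only scaling to TPM or by the median ratio could have turned a direction, and neither did. The filters could not change the call of a gene still tested. Using the fold alone or the bounds alone could not undo a call. The median change of the tested genes, 1.30, was 2.03 with a pseudocount of 0.1, 2.04 with none, 1.69 as TPM and 0.065 without the filter, where all 10 genes enter. This median is the value of FBLN5 itself, and it was 1.03 without FBLN5, as at a mean of at least 5 FPKM. Among the relatives, calls of higher genes went from 1 to 0 at a mean of at least 5 FPKM, and calls of lower genes from 2 to 1 there, as TPM, with the median ratio, with a fold of 2 and with standard errors. FBLN7 was the call lost in the last 4. By the fold alone, 2 other matrix glycoproteins were higher and 9 lower (1 and 6 by the rule used), and 2 receptors were higher and 1 lower, while with a fold of 2 the number of higher receptors was 0. The fold alone called 22.1% of all genes. Scaling moved the median of all genes by at most 0.07 and the calls over all genes from 649 higher and 641 lower to 735 and 547 as TPM and to 706 and 560 with the median ratio. No paired analysis was possible because the table pools both libraries per cell line, and for the same reason no replicate could be left out.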
